A study of Mus musculus with 2 samples.

Results

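Gnas, Grb10, Inpp5f, H13, Herc3 and Mest are 6 imprinted genes for which parent-of-origin expression is known to depend on the promoter or the transcript. They were taken by symbol, and are 6 of the 55536 annotated genes in the gene table and 71 of the 141862 annotated transcripts. Tissue labelled layer of hippocampus was taken for total RNA sequencing from B6CASTF1/J mice, all female and adult, at an age of 8 to 10 months. These mice are first-generation hybrids of C57BL/6J and CAST/EiJ. There were 2 libraries, biological replicates 1 and 2, from animals numbered 1 and 5. The input was 300 ng of RNA each, and ERCC spike-ins, synthetic transcripts in known amounts, were added. Both animals carry the same donor identifier, and the labels name no treatment and no second genotype. The design therefore holds 1 group, and what can be described is the level of each gene, the transcripts behind it and the spread between the animals.

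Imprinting is the expression of a gene mainly or wholly from the copy inherited from a given parent, set by DNA methylation laid down in the germ line. In these genes the mark acts on a promoter rather than on the whole gene, so that imprinted and non-imprinted transcripts can share exons. At Gnas, for example, a secretory protein, an extra-large G protein subunit, a noncoding exon 1A transcript and the G protein subunit Gs-alpha start at separate promoters and are spliced to common downstream exons. In H13 and Herc3 the imprinted promoter belongs to a retrogene lying within the host gene, and host transcripts are known to end on either side of it. The tables sum the copies from both parents, so parent of origin was not measured.

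The promoters are shown because the shares given below are counted by start. RefSeq windows on GRCm38.p6 of 250 bases immediately upstream of the annotated start were matched for all 6 genes, giving 12 windows, some of which overlap. A selection from Gnas, Grb10 and Mest, and the window of Nap1l5 inside Herc3, are printed 5′ to 3′ in the direction of transcription. Each CpG, the dinucleotide that carries DNA methylation, is in capitals. Several starts had no window, among them the extra-large Gnas start, the late Inpp5f starts and the upstream Herc3 start group at 58831465-58831861.
Gnas NESP start, chr2:174284070-174284319, plus strand: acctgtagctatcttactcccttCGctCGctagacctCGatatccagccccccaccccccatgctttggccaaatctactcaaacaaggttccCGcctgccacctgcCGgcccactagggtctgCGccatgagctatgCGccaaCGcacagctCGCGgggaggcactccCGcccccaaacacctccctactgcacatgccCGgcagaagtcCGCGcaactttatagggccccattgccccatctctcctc
Gnas exon 1A start, chr2:174327499-174327748, plus strand: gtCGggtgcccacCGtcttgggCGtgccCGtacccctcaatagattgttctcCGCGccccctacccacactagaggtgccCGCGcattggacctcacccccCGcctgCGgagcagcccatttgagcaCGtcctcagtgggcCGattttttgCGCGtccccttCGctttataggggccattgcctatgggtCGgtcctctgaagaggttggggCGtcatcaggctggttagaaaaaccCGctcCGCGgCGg
Gnas Gs-alpha start, chr2:174329756-174330005, plus strand: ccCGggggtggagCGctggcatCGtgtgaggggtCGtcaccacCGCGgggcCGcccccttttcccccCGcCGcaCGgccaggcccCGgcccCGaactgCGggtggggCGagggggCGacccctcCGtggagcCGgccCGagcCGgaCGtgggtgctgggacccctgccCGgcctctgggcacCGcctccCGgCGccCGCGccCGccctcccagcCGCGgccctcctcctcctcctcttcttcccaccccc
Grb10-201 start, chr11:12037421-12037670, minus strand: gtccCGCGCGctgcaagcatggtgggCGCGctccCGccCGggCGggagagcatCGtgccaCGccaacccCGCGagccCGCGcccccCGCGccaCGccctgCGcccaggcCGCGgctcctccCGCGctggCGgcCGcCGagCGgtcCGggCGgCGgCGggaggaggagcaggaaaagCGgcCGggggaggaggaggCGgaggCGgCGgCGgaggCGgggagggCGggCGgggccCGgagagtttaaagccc
Grb10-203 start, chr11:12027972-12028221, minus strand: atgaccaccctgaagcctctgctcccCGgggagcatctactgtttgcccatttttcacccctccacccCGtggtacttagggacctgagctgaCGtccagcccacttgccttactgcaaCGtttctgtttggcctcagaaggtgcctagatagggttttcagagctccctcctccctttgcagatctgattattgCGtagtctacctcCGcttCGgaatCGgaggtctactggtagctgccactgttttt
Mest-211 start, chr6:30737800-30738049, plus strand: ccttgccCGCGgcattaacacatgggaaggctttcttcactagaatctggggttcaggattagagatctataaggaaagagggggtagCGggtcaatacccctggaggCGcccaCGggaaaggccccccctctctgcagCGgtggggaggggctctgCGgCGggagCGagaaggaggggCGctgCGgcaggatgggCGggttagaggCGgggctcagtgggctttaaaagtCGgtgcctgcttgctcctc
Nap1l5 start, chr6:58907127-58907376, minus strand: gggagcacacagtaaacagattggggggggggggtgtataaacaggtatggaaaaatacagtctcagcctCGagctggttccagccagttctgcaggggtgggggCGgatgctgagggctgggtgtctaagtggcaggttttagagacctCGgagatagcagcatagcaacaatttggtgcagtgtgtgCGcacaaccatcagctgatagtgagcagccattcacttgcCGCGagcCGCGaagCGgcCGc

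CpG content varied widely among these windows. The Grb10-201 window held 40 CpGs and the Gs-alpha window 29, against a median of 6 and an upper quartile of 16 over 32851 windows of the same length. By contrast the Grb10-203 window held 8. Of the 12 windows 11 lay above the median, and the exception, at Herc3-202, held 4. The exon 1A window had 21 CpGs, and the NESP and Mest-211 windows had 14 each. At H13 the window held 18 CpGs, at the full-length Inpp5f start 11 and at the upstream Mest-210 start 7. The hexamer TGCCGC, searched on both strands (GCGGCA on the other), is the core motif bound by ZFP57, a zinc finger protein that maintains imprints. It was found in 8.68% of all windows. Among the 12 windows it occurred in 2, the overlapping windows of Mest-211 and Mest-202, which contain the same 2 matches. The windows of Nap1l5 and of Mcts2, the retrogenes inside Herc3 and H13, held 1 match each, and Mcts2 had 20 CpGs. A match describes the letters only.

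The sequencing gave 34208349 expected counts in replicate 1 and 28417193 in replicate 2. Expected counts are reads assigned to genes by a model that divides a read among the transcripts it could come from. Neuronal and glial markers were detected in both libraries at unequal levels. The excitatory neuron gene Camk2a was at 1486 and 1633 TPM, a level corrected for transcript length and library size. The microglial gene Cx3cr1 was the lowest among them at 13.7 and 15.1 TPM. All 4 choroid plexus markers were higher in replicate 2, with Ttr at 21.8 and 615 TPM, Kl at 4.97 and 11.4, Clic6 at 0.35 and 3.59, and Folr1 at 0.50 and 3.76. Wfs1 of pyramidal neurons (85.5 and 127 TPM) and Mog of oligodendrocytes (17.2 and 26.3) were also higher in replicate 2. Markers of the same cell types did not move together. The oligodendrocyte gene Mbp was at 753 and 720 TPM, and the excitatory neuron gene Slc17a7 at 592 and 613. The neuronal genes Prox1 (35.1 and 33.6) and Neurod2 (64.3 and 61.6) were slightly lower in replicate 2. Other markers were lower in replicate 2, among them the endothelial gene Cldn5 (20.2 and 16.2) and the astrocyte gene Aqp4 (57.1 and 47.6). The astrocyte genes Gfap (176 and 199) and Slc1a2 (820 and 870) were higher there. The part of these markers in the differences between animals given below was not tested. In such tissue, fewer cells of a type and less RNA per cell cannot be told apart.

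All 6 genes exceeded 1 TPM in both libraries, where 15245 of all 55536 annotated genes were at 1 TPM or more in both. Their levels spanned a wide range. Gnas was by far the highest at 865 TPM in replicate 1 and 839 in replicate 2, a mean of 852 ± 18.6 (SD, n = 2), which ranked 24th among protein-coding genes. Herc3, a ubiquitin ligase of the HECT family, followed at 106 and 68.8 TPM (mean 87.3 ± 26.1, SD, n = 2). It was the gene that differed most between the animals. Its level includes short forms that rest on few counts, described below. The full-length transcript Herc3-202 alone was at 49.6 and 33.1 TPM, below the gene level of Inpp5f. Inpp5f, a phosphatase of phosphoinositide lipids, stood at 58.3 and 62.6 TPM (mean 60.5 ± 3.03, SD, n = 2). H13, the signal peptide peptidase, stood at 39.5 and 32.7 TPM (mean 36.1 ± 4.82, SD, n = 2). Mest, a predicted hydrolase of the alpha/beta fold, was nearly equal in both animals. Its values were 28.1 and 27.3 TPM (mean 27.7 ± 0.53, SD, n = 2). Grb10, an adaptor that restrains insulin and insulin-like growth factor receptor signalling, was lowest at 15.4 and 19.2 TPM (mean 17.3 ± 2.64, SD, n = 2). Each neighbouring pair in this order was apart by more than the larger SD and in the same direction in both animals, though Herc3 and Inpp5f were close in replicate 2.

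The second transcript table, estimated from the reads by another method, gave the same order of means. Gnas was at 837 TPM there, Herc3 at 99.2, Inpp5f at 50.9, H13 at 33.3, Mest at 17.1 and Grb10 at 15.3. Mest and Grb10 did not separate in it: Mest was at 17.9 and 16.3 TPM, and Grb10 at 14.1 and 16.5, so that Grb10 was the higher in replicate 2.

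**Figure D1:**
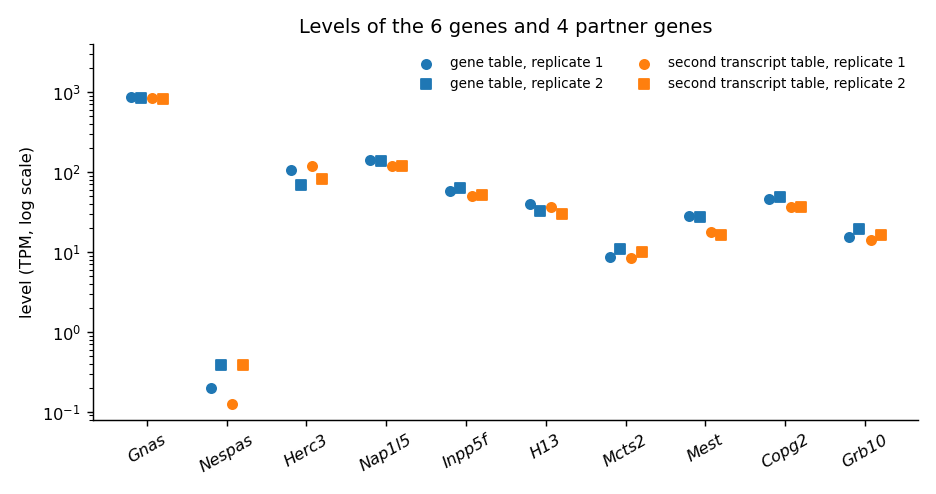
Level in TPM (log axis) of the 6 genes and of 4 genes that lie in or overlap them (Nespas, Nap1l5, Mcts2, Copg2), with 1 point per library and table. Gnas stands above all others, Nespas lies below 1 TPM, and the Herc3 points of the replicates are visibly apart in both tables.

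Between the animals, the ratio of replicate 2 over replicate 1 was taken after TMM scaling, which sets the bulk of genes equal, with an exact 95% interval that covers counting error only. Herc3 had 5363 and 2954 expected counts, a log2 ratio of -0.60 (interval -0.67 to -0.54), so it was 1.52-fold lower in replicate 2. H13, with 1848 and 1262 counts, was also lower there, at a log2 ratio of -0.29 (-0.40 to -0.19). For Inpp5f the counts were 3929 and 3625 and the log2 ratio 0.14 (0.08 to 0.21). Gnas differed by very little at its great depth of 28408 and 23024 counts, at -0.04 (-0.07 to -0.02). The intervals of Mest (961 and 815 counts, 0.02, -0.12 to 0.16) and Grb10 (1279 and 1149 counts, 0.10, -0.01 to 0.22) included equality. The interval excluded a ratio of 1 for 4 of the 6 genes, where 44.3% of all 14434 genes tested did so. A difference of at least 2-fold was met by 0 of the 6, and by 1.10% of all genes tested. These ratios compare 2 libraries, not conditions.

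Scaling on the spike-ins moved the median of all genes tested from -0.02 to -0.26 on the log2 scale. Under it, Inpp5f (-0.10), Grb10 (-0.14) and Mest (-0.22) turned to the lower side in replicate 2, while Herc3 stood at -0.84, H13 at -0.53 and Gnas at -0.29. The intervals of Mest (-0.36 to -0.09) and Grb10 (-0.26 to -0.02) then excluded equality too, which made 6 of 6 genes, beside 69.8% of all genes tested under that scaling. Relative to the median of its own scaling, Herc3 remained the lowest of the 6 and Inpp5f the highest.

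**Figure D2:**
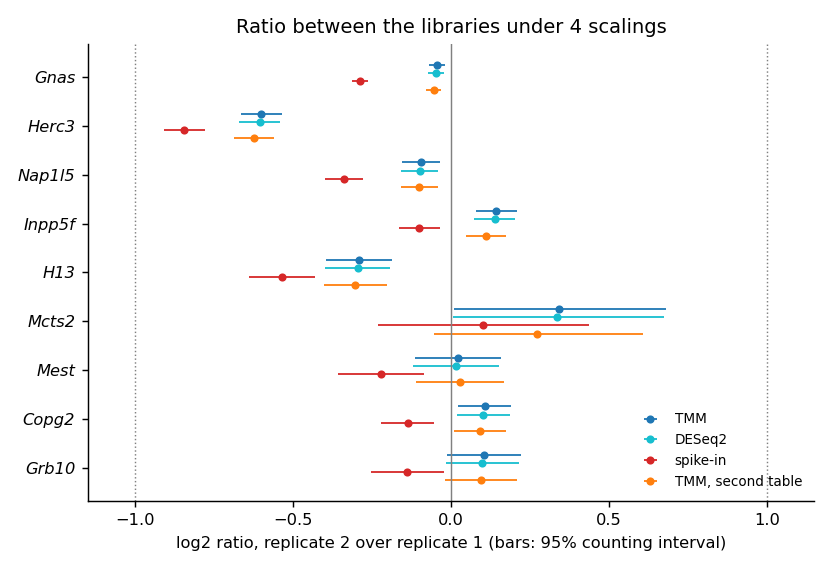
The log2 ratio of replicate 2 over replicate 1 for the 6 genes and 3 partner genes, with 95% counting intervals as bars, under TMM, DESeq2 and spike-in scaling and in the second table. Dotted lines mark a 2-fold difference, which no gene reaches, and Herc3 lies lowest under every scaling while the spike-in values are shifted to the left.

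Transcript use was described by grouping annotated starts that lie within 500 bases of each other. The 71 transcripts fell into 38 such starts. Of the 71, 43 are annotated as protein coding, 25 were at 1 TPM or more in both libraries and both transcript tables, and 20 were at 0 TPM in both libraries of the first table. The share of a gene's TPM taken by a transcript differed by at least 10 points between the animals for 2 of the 71, Grb10-203 and Grb10-207, against 13.1% of 77876 transcripts in the background. The leading transcript differed between the replicates for Inpp5f alone of the 6 genes, where it did so for 14.7% of 12116 genes. More moved with the method: 8 of the 71 shares differed by at least 10 points between the transcript tables, where 17.8% of all did. The leading transcript was nevertheless the same in the mean of both tables for all 6 genes, while it differed for 19.7% of all genes. Of the 51 transcripts with counts in the first table, 15 had a posterior SD over 2 times the square root of the higher count, a sign that reads were hard to assign to them. Of the 20 at 0 counts in both libraries, 10 had a posterior SD above 3 counts in a library, up to 42.6, so that such a 0 does not show absence.

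**Figure D3:**
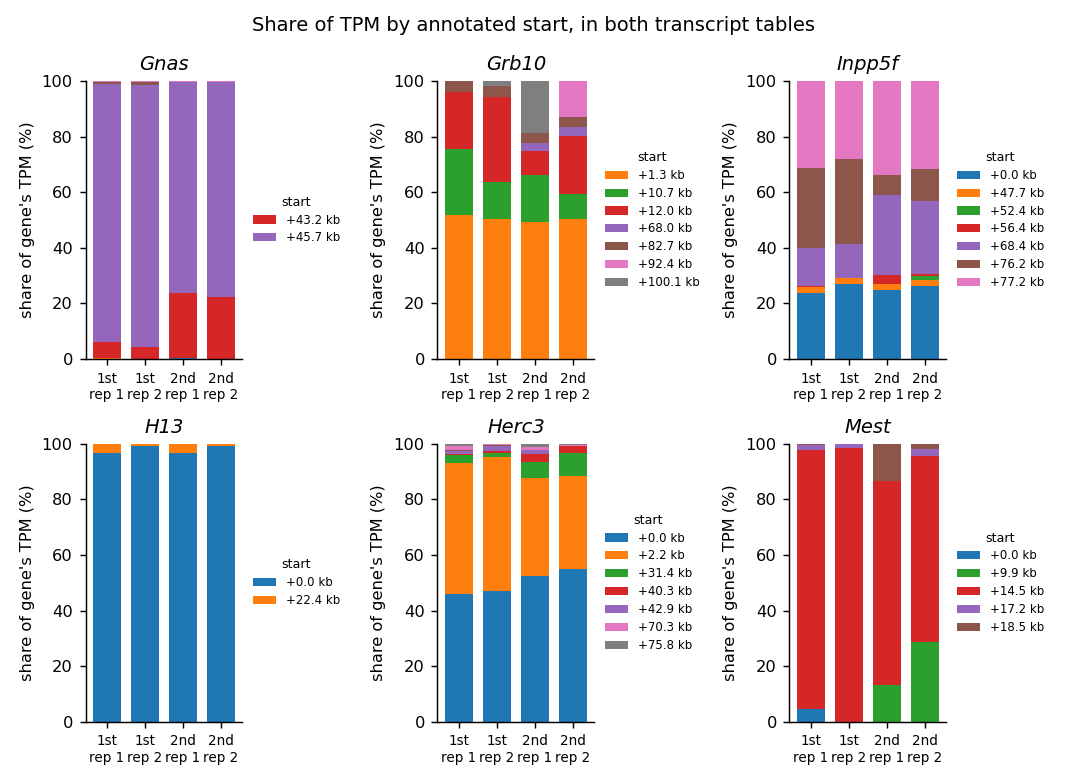
Share of each gene's TPM (%) by annotated start, in both libraries of the first and the second transcript table; starts are named by their distance from the most upstream annotated start, and those under 1% in every bar are not labelled. H13 uses essentially 1 start in all bars, the Gnas exon 1A start takes a larger share in the second table, Mest shows a further start there, and Grb10 and Inpp5f are spread over several.

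Gnas RNA came mainly from the Gs-alpha promoter in both tables, the start of the subunit that couples hormone and neurotransmitter receptors to adenylyl cyclase. Starts at chr2:174330006-174330287 (mm10) took 92.9% and 94.3% of its TPM (mean 93.6% ± 1.02, SD, n = 2) in the first table and 76.8% in the second. The leading transcript was Gnas-208, with 15619 and 12945 counts and 53.6% ± 0.86 of the TPM. Next came Gnas-206 at 32.6% ± 1.23, then Gnas-205 at 5.35% and Gnas-207 at 2.11%. Exon 1A starts, between positions 174327570 and 174328023, took 5.56% and 4.25%. These were chiefly the noncoding Gnas-221 (995 and 534 counts) and Gnas-202, annotated as protein coding (850 and 715 counts). In both animals the counts assigned to exon 1A starts were thus well above a few reads, at 48.1 and 35.6 TPM. Reads of Gnas-221 were hard to assign, with posterior SDs of 104 and 75.8 counts.

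The other imprinted Gnas starts made up less than 1% of its RNA. The NESP transcript Gnas-211, starting at 174284320, had 16.0 and 20.1 counts, or 0.32 and 0.48 TPM. In the second table it had 107 and 60.5 counts, or 1.72 and 1.17 TPM. Transcripts from the extra-large (XL) start at 174297859 summed to 12.0 and 1.51 counts, which is 0.01% of the gene's TPM. Nespas, the antisense RNA across the NESP exon, had 9 counts in each library, and the strand setting of the authors' counting is not given in the sources used. At the neighbouring start of Gnas-214 and Gnas-215 the summed counts were 43.9 and 1.06. The second table gave 42.8 and 0 there, assigned to Gnas-215 where the first had assigned Gnas-214. Both tables thus placed these counts mainly in replicate 1. However, both transcripts were among those whose reads were hard to assign, with posterior SDs of 18.2 and 6.11 counts for Gnas-214. Use of this start was therefore not determined.

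The split between exon 1A and Gs-alpha starts depended on the table more than on the animal. In the second table exon 1A starts held 22.7% ± 0.80, and Gs-alpha starts 76.8% ± 0.89. The difference lay mainly in Gnas-218, a noncoding transcript of 607 bases starting at 174328023, which had 0 counts in both libraries of the first table (posterior SDs of 36.3 and 22.6) and 1354 and 1114 in the second (16.0% of TPM). Gnas-206 was lower in the second table, at 16.0%, and Gnas-207 higher, at 11.1%. Both tables place Gs-alpha starts first and NESP and XL starts below 1%.

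Grb10 RNA was led by the far upstream, CpG-dense promoter. Grb10-201, starting at chr11:12037401 on the minus strand with 17 exons, held 51.9% and 50.5% of the TPM (mean 51.2% ± 0.98, SD, n = 2) from 837 and 846 counts. By counts, which favour long transcripts, it held 69.6%. In the second table its share was 49.8%. The posterior SD of its count, the table's own measure of how uncertain the assignment of reads was, came to 99.1 and 84.0 counts. Grb10-203 begins at 12027971, where the window shown above has fewer CpGs, and shares its last base with Grb10-201. It had 360 and 210 counts and 23.8% and 13.4% of TPM, with posterior SDs of 97.1 and 81.8 counts. In the second table it was again higher in replicate 1 (298 and 160 counts). The rest rested on few reads. Grb10-205, of 3341 bases, had 41.5 and 42.6 counts and 3.93% of TPM. Grb10-207, of 430 bases, rested on 10.3 and 24.7 counts yet made up 9.58% and 22.2% of TPM, and Grb10-209, of 940 bases, on 29.5 and 23.2 counts. These start at 12026732 and 12026324. Which annotated start is the paternal, neuronal promoter known for Grb10 was not assigned here.

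Among relatives of Grb10, the receptors it binds were at similar levels, with Insr at 26.6 ± 2.66 TPM and Igf1r at 23.4 ± 4.85 (SD, n = 2). Its sister adaptors were Grb14 at 16.1 TPM and Grb7 at 1.30. Of the 4 genes 2 had an interval that excluded a ratio of 1, beside 44.3% of all genes. These were Igf1r, lower in replicate 2 at a log2 ratio of -0.34, and Insr, higher at 0.08.

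Inpp5f divided its RNA among a full-length form and several late starts. The full-length Inpp5f-201, with 20 exons from chr7:128611360, held 21.6% and 26.3% of TPM (1230 and 1346 counts). Inpp5f-203, a form of 6 exons starting at 128688489, is in the region where the paternally expressed short brain variant is known to begin. It held 31.3% and 28.1% (mean 29.7% ± 2.23, SD, n = 2) from 1199 and 967 counts. Inpp5f-208, also of 6 exons and starting upstream of it at 128687546, held 28.6% and 30.5%, so the leader was Inpp5f-203 in replicate 1 and Inpp5f-208 in replicate 2. These late forms overlap along the same stretch, and the tables divided them differently. In the second table Inpp5f-208 was at 9.20%, and Inpp5f-206, a retained-intron form starting at 128679686, was at 27.6% against 13.1% in the first. Inpp5f-203 was at 32.8% there and Inpp5f-201 at 23.1%, both near their first values. By counts the full-length start led, with 35.0% against 28.6% for the start of Inpp5f-203. RNA from the 2 starts at 128687546 and 128688489 together made up 59.2% of the TPM in the first table. Their part was smaller on the other measures, at 9.20% and 32.8% in the second table and 22.9% and 28.6% by counts. The pseudogenes Gm43580 (45.2 and 61.4 counts) and Gm16044 (21 and 28 counts) lie inside this region on the same strand and could exchange reads with it.

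H13 kept to 1 promoter and differed in where its transcripts ended. Starts at chr2:152669461-152669534 held 96.7% and 99.3% of TPM (mean 98.0% ± 1.81, SD, n = 2). The retrogene Mcts2, a paternally expressed copy of the X-linked translation factor gene Mcts1, occupies chr2:152687035-152687946 on the same strand, within the host. Transcripts that end before it, H13-206 and H13-203, held 34.1% and 29.6% of H13 TPM (mean 31.8% ± 3.20, SD, n = 2), from 565 and 344 counts. Those that span it, led by H13-202 at 47.1% and 56.0%, held 62.6% and 69.7%. The division into ended and spanning forms varied little with the measure. It was 28.9% ended by counts and 31.3% in the second table. Most of the ended form was H13-206, annotated as a retained intron (19.5% ± 1.51), and among protein-coding transcripts alone the ended share was 15.8%.

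Mcts2 itself had 147 and 156 counts, at 8.59 and 10.9 TPM, which is 0.22 and 0.33 of the H13 level in the same library. Its log2 ratio between animals was 0.34 (interval 0.01 to 0.68), opposite in sign to that of H13, but the interval included 0 under spike-in scaling (0.10, -0.23 to 0.44) and in the second table (0.27, -0.05 to 0.61). Mcts1 stood at 42.8 ± 0.40 TPM, and reads shared with it could affect the Mcts2 value.

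Herc3 was the most dependent on how abundance was expressed. Its full-length transcript Herc3-202, with 25 exons from chr6:58833700 to 58920398, spans the opposite-strand retrogene Nap1l5 at chr6:58905233-58907076. It held 90.9% of Herc3 counts (4841 and 2704) but 47.5% ± 0.92 of TPM, and 34.2% of TPM in the second table. The start group just upstream, at 58831465-58831861, held 46.6% and led the second table at 53.8%. Transcripts that end before Nap1l5 held 52.2% and 51.6% of TPM, and 8.97% of counts (511 and 249). Most of that was in short forms at the 5′ end of the gene, which stop long before Nap1l5. These were Herc3-205 (446 bases, 19.3% of TPM), Herc3-204 (676 bases, 13.8%) and Herc3-209 (374 bases, 12.2%). Among forms that end close to Nap1l5, Herc3-201, ending at 58904081, had 0.54 and 0 counts in the first table and 39.4 and 0 in the second. Its posterior SD in replicate 1 was 25.8 counts, so its level was not determined at this depth. Herc3-212, a retained-intron form of 2762 bases, ended closer still, at 58904509. It had 75.8 and 9.87 counts in the first table (posterior SDs of 4.14 and 1.29) and 73.9 and 17.9 in the second.

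The lower Herc3 level of replicate 2 was seen in both classes. Spanning RNA was at 49.6 and 33.1 TPM and ended RNA at 55.2 and 35.5 TPM. Nap1l5, a histone chaperone family gene expressed from the paternal copy, did not follow to the same extent. It was at 142 and 136 TPM (5216 and 4081 counts), a log2 ratio of -0.10 (-0.15 to -0.04). The intervals of Herc3 and Nap1l5 did not overlap, and per length Nap1l5 was at 1.34 times Herc3 in replicate 1 and 1.97 times in replicate 2. The corresponding values in the second table were 1.02 and 1.46. All of these ratios use whole-gene Herc3 TPM, which includes the short 5′ forms. They would be higher against the spanning RNA alone.

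**Figure D4:**
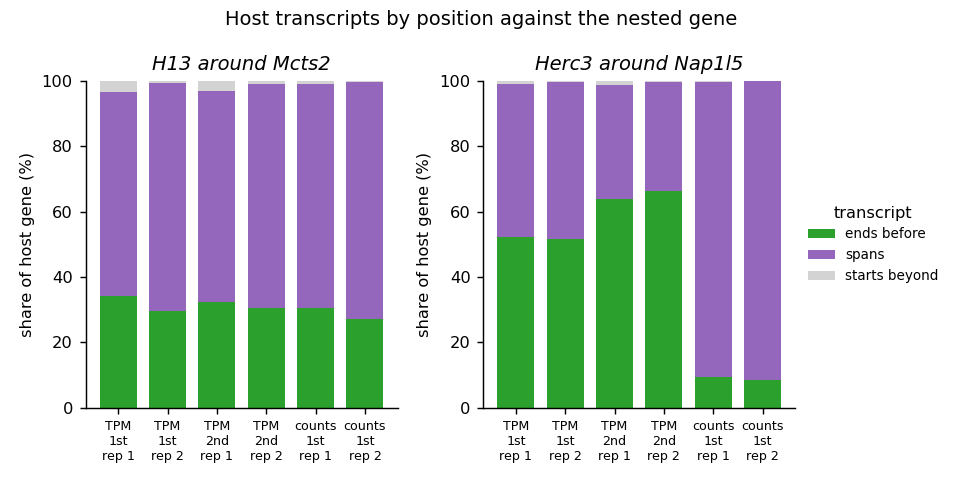
Share of H13 and Herc3 (%) in transcripts that end before the nested retrogene, span it or start beyond it, by TPM in the first and second tables and by counts in the first, for both replicates. The H13 bars are alike on all measures, while the Herc3 class that ends before Nap1l5 shrinks from above 50% of TPM to below 10% of counts.

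Mest RNA came mainly from the CpG-containing promoter with the hexamer matches. Starts at chr6:30738050-30738055 held 93.3% and 98.4% of TPM (mean 95.8% ± 3.57, SD, n = 2). The full transcript Mest-211, of 12 exons, had 887 and 760 counts and 62.5% ± 2.29 of TPM. Mest-204 is a noncoding form of 417 bases that rested on 60.9 and 52.2 counts and made up 33.3% of TPM. In the second table it was at 6.83%. The transcript from the upstream start at 30733506, Mest-210, also of 12 exons, was at 0 counts in both libraries of the first table, with posterior SDs of 35.0 and 42.6 counts, and at 142 and 233 counts in the second, where it held 13.3% and 28.7% of TPM (mean 20.97%). Use of the upstream promoter was therefore not determined, and the start group at 30738050 held 70.1% in the second. The gene as a whole had nearly equal counts in both (961 and 815 against 921 and 791), so the gap between its levels of 27.7 and 17.1 TPM came with a different division among transcripts of unequal length.

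Copg2, a coat protein gene that overlaps the 3′ end of Mest on the opposite strand, stood at 46.4 and 49.2 TPM. That was 1.65 and 1.80 times Mest, and the second table gave 2.02 and 2.22 times. Mir335, the microRNA gene inside Mest, had 0 counts in both. It spans only positions 30741299-30741396. The other short RNA genes annotated inside Gnas and Mest were also at 0 counts, so this 0 does not show absence.

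**Figure D5:**
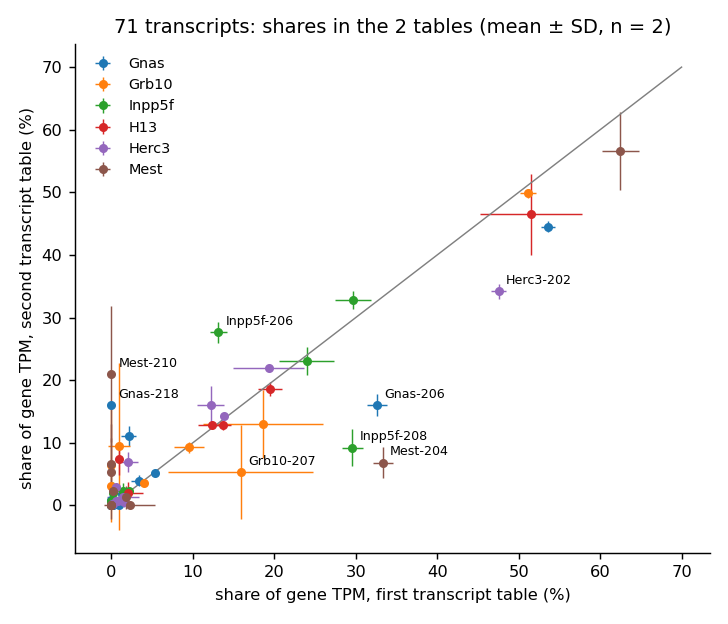
Mean share of gene TPM (%) for each of the 71 transcripts in the first (x) against the second (y) transcript table, with SD over the 2 libraries as bars; the line marks equal shares. The 8 labelled transcripts differ by at least 10 points, among them Mest-204 and Inpp5f-208 below the line and Mest-210 and Gnas-218 above it.

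Genes of the same families set these levels in context. Gnas exceeded all 10 other G protein alpha subunit genes measured, of which Gnao1 was highest at 330 ± 8.77 TPM. Gnai2 followed at 110.1 TPM, Gnaq at 92.7, Gnai1 at 84.0, Gna11 at 56.0, Gnal, the olfactory relative of Gs-alpha, at 52.8, Gnaz at 50.3, Gna12 at 39.2, Gna13 at 27.4 and Gnai3 at 14.1. All 10 had a log2 ratio below 0 by TMM scaling, as did 7805 of all 14434 genes tested, with a median of -0.12 beside -0.02. Of their intervals 7 excluded 1, beside 44.3% over all genes. Herc3 was above the other HECT and RCC1 family genes Herc2 (64.7 ± 2.27 TPM), Herc1 (55.5), Herc4 (18.5) and Herc6 (4.03) in the mean. In replicate 2 it was close to Herc2, at 68.8 against 63.1 TPM. These Herc3 values are for the whole gene, including its short forms. Its full-length transcript Herc3-202 alone was at 49.6 and 33.1 TPM. That was below the gene levels of Herc2 (66.3 and 63.1) and Herc1 (51.6 and 59.3) in both libraries.

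Inpp5f was below Synj1, a synaptic phosphoinositide phosphatase (214 ± 5.38 TPM), and above Synj2 (35.5), Sacm1l (31.3), Fig4 (16.7) and Inpp5e (13.1). H13 was close to its relative Sppl3 (38.4 ± 0.90 TPM) and above Sppl2b (27.3) and Sppl2a (15.1) in the mean. Of the 8 hydrolases set beside Mest, 5 had a higher mean, Abhd12 at 163, Abhd2 at 42.3, Abhd6 at 34.9, Ephx4 at 31.2 and Abhd3 at 29.6 TPM. Ephx1 (19.2), Abhd1 (9.33) and Ephx2 (8.80) were lower. In the second table the mean of Ephx1 (17.8 TPM) was also above that of Mest (17.1). In replicate 1 alone Ephx1 was lower there (14.6 against 17.9).

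Factors that write or read imprints were measured at unequal levels. Trim28, the corepressor recruited by imprint-binding zinc finger proteins, was at 127 ± 7.65 TPM and Zfp445, which encodes such a protein, at 90.0 ± 2.37. Ctcf was at 34.3 TPM, the histone methyltransferase gene Setdb1 at 19.4 and the maintenance DNA methyltransferase gene Dnmt1 at 17.2. Zfp57 was low at 4.55 ± 0.99 TPM and Uhrf1 lowest at 0.555. Intervals of 2 of the 6 tested, Ctcf and Dnmt1, excluded 1, beside 44.3% of all genes, and none reached 2-fold, beside 1.10%.

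Of 12 genes listed as partners or neighbours of the 6, 10 were above 1 TPM in both libraries. Of all 55536 annotated genes, 15245 were at 1 TPM or more in both. The list also holds Mcts1, on the X chromosome, and Pyurf (4.24 TPM), which lies on chromosome 6 at 57686576-57692078, apart from Herc3. Besides those given above, Cobl (14.5 TPM) and Ddc (4.14) neighbour Grb10, Mcmbp (14.5) and Bag3 (6.38) neighbour Inpp5f, Fam13a (9.82) neighbours Herc3, and Klf14 (0.175) lies by Mest. Intervals of 6 of the 10 tested excluded 1, beside 44.3% of all genes, and none reached 2-fold, beside 1.10%.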

How the data were processed

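Per the file headers and the deposited notes, the authors made 3 tables per library on mm10 with GENCODE M21. A gene table and a first transcript table, made from alignments, hold expected counts and TPM. The authors' first transcript table also gives, per the file headers, each transcript's percent of its gene's TPM (deposited as a percentage). The posterior SD of the count, deposited by the authors, was read as a never-negative signal of how sure the assignment was. A second transcript table, made from reads, holds estimated counts and TPM. The aligner, versions and strand setting are not stated in the sources used. From the deposited expected counts, rounded, ratios were computed in R 4.3.3 with TMM (edgeR 4.0.16), DESeq2 1.42.0 or spike-in scaling, a prior count of 2 and a mean count of at least 50. Shares were computed with pandas 2.3.3 from the deposited TPM, with starts within 500 bases joined. Scripts were tested on simulated data. No p-value was computed, since there is 1 group. Named were all 6 genes, the genes nested or adjacent, all relatives, all imprint factors, and the 5 highest and 3 lowest other imprinted genes. The genes and lists were chosen with earlier results of these data known. The ZFP57 hexamer is textbook knowledge; windows come from RefSeq. All 95 list genes were matched.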

Additional observations from a re-analysis of the deposited data

How the results depend on the processing

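All 6 genes stayed above 1 TPM, and 0 reached 2-fold, under every alternative run (a minimum of 5 TPM, DESeq2 or spike-in scaling, no count filter, the second table). The share of the start that led in the first table moved in the second for Gnas (76.8%), Grb10 (49.8%), Inpp5f (32.8%), Herc3 (34.2%) and Mest (70.1%). For Herc3 another start, at 53.8%, led there. Joining starts within 100 bases gave 88.3% for Gnas, and within 2000 bases 98.5% for Gnas, 59.2% for Inpp5f and 94.2% for Herc3, since more starts are joined. Among protein-coding transcripts it was 98.4% for Gnas, 53.8% for Grb10, 35.7% for Inpp5f, 100% for H13 and 50.4% for Herc3. By expected counts, which are not per length, it was 69.6% for Grb10 and 90.9% for Herc3, and the Inpp5f lead passed to the full-length start (35.0% against 28.6%). The share ending before the nested gene was 15.8% for H13 and 49.6% for Herc3 among protein-coding transcripts, and for Herc3 65.1% in the second table and 8.97% by counts. Transcripts differing between the animals numbered 5 in the second table and 4 at a difference of 5 points. At 5 points also, 18 transcripts differed between the tables. Where not stated, the cause was not tested. Leaving out either animal gave leading-start shares of 92.9% to 94.3% for Gnas, 50.5% to 51.9% for Grb10, 28.1% to 31.3% for Inpp5f, 96.7% to 99.3% for H13, 46.9% to 48.2% for Herc3 and 93.3% to 98.4% for Mest. It gave 29.6% to 34.1% ending early for H13, 51.6% to 52.2% for Herc3, and 9 to 10 transcripts differing between the tables. With 1 animal left there is no ratio and no difference between animals. No paired analysis was possible because there is 1 group. The spread over 2 animals limits every value, and the intervals cover counting error only. Among transcripts with fewer than 50 counts in the first table are Gnas-211, Gnas-214, Grb10-205, Grb10-207, Grb10-209, Herc3-201 and those from the XL start.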

Other observations

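Of 42 other imprinted genes, 31 were at 1 TPM or more in both libraries, beside 15245 of all 55536 annotated genes. The 5 highest were the maternally expressed noncoding RNAs Meg3 (1458 ± 25.8 TPM, SD, n = 2) and Rian (597 ± 13.2), and the paternally expressed Snrpn (404 ± 8.77), Nnat (259 ± 53.4) and Rasgrf1 (241 ± 2.31). Gnas, at 852 TPM, lies between Meg3 and Rian. The 3 lowest were Asb4 (0.145 TPM), Rtl1 (0.040) and Calcr (0.015). Those tested between the animals, at a mean count of at least 50, also numbered 31, but included Magel2 in place of Airn. Of these, 21 had an interval that excluded 1 (44.3% of all genes did) and 1 reached 2-fold (1.10% of all did). That gene, named after its values were seen, was Dio3, the enzyme that inactivates thyroid hormone, with 168 and 56 counts and a log2 ratio of -1.30 (-1.79 to -0.88).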
